A study of Sus scrofa with 13 samples.

Results

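The comparison described here set 3 dystrophin knockout (DMD KO) pigs against 3 wild-type (WT) pigs at 3 months of age, over all 21893 probe sets of a whole-transcript expression array hybridised with RNA of the biceps femoris, a muscle of the hind limb. These are 6 of the 13 arrays of the study, which holds 1 array per animal, chosen by the age and genotype in their labels. The other 7 arrays come from the same muscle at 2 days of age, 4 of DMD KO and 3 of WT piglets, and serve to ask where the genotype difference at 3 months differs from that at 2 days. They also enter the estimate of spread that every test at 3 months uses and the choice of 1 probe set per gene. All animals were German Landrace. The DMD KO animals carry a deletion of exon 52 of DMD and were obtained by nuclear transfer, from primary kidney cells modified with an altered bacterial artificial chromosome. Their muscle was collected right after they had died, whereas age-matched WT animals were euthanised. Genotype, cloning and manner of death therefore cannot be told apart in any difference given here. The labels call the animals biological replicates and name no litter, sex or batch.

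Dystrophin is the long rod-shaped protein that couples the actin cytoskeleton of a muscle fibre to a complex of membrane proteins and, through it, to laminin in the basement membrane. Without it the membrane tears on contraction, calcium enters, fibres die and regenerate, macrophages clear the debris, and connective tissue fills the space that fibres leave. In people the loss of dystrophin causes Duchenne muscular dystrophy, and a deletion of the exon removed here shifts the reading frame of the human transcript.

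A gene was represented by its brightest probe set, which gave 10283 named genes. A level is a log2 value as deposited, so a difference of 1 is a doubling. Differences are DMD KO minus WT, and a gene was called when its adjusted p (limma, Benjamini-Hochberg over all probe sets) was under 0.05. Fold changes were left out where the mean of the dimmer group lay below percentile 25 of the arrays, which ran from 6.53 to 6.61. Array medians at 3 months ran from 7.32 to 7.38, and values at percentile 95 from 9.48 to 9.83. Correlations between arrays across probe sets ran from 0.987 between DMD KO replicates 1 and 2 down to 0.914 between DMD KO replicate 3 and WT replicate 2. At 2 days WT replicate 3 stood apart from the other WT piglets, with a value at percentile 95 of 9.21, against 9.59 and 9.67, and a mean correlation of 0.943 with its own group, against 0.966 and 0.958. With 3 arrays per genotype, precision is set by the number of animals. The tissue label was borne out by muscle genes, since the probe sets of NEB, MYH1, ACTA1 and MYH7 lay at or above percentile 97.8 of every one of the 6 arrays. Of the 10 measured markers of skeletal muscle 1, TNNC2, was called lower, and the mean level of the list overlapped between genotypes, at 11.71, 11.74 and 11.51 in the DMD KO animals, against 11.81, 11.88 and 11.64 in the WT animals. In muscle tissue, fewer cells of a type and less RNA per cell cannot be told apart.

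At 3 months 757 of the 10283 named genes passed the test, 592 higher in DMD KO muscle (5.76% of named genes) and 165 lower (1.60%). Rises were more frequent and larger: 223 genes were higher by at least 1 and 43 by at least 2, whereas 34 were lower by at least 1 and only PVALB by at least 2. The genes that rose most were PDK4, LYZ, CASQ2, ACTC1 and ANKRD1, and those that fell most were PVALB, GADL1, FRZB, TEX9 and AK1. Over all named genes the median difference was -0.03. The values of the genotypes did not overlap in 753 of the called genes, and they did not overlap in 26.0% of all named genes. A further 505 called probe sets carried no symbol or several and are not named. Over all probe sets 1310 were called (5.98%), 1012 higher (4.62%) and 298 lower (1.36%). Leaving out 1 animal changed that number to 702 without DMD KO replicate 3, 725 without WT replicate 3 and 776 without WT replicate 2, all at 3 months, and to 2036 without WT replicate 3 at 2 days. On the 6 arrays at 3 months alone it was 876. Where a call on a gene or a count on a list is given below without an animal, that animal is 1 of the 6 at 3 months. Counts of called list members below are to be read beside the shares of all named genes, 5.76% higher and 1.60% lower.

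**Figure D1:**
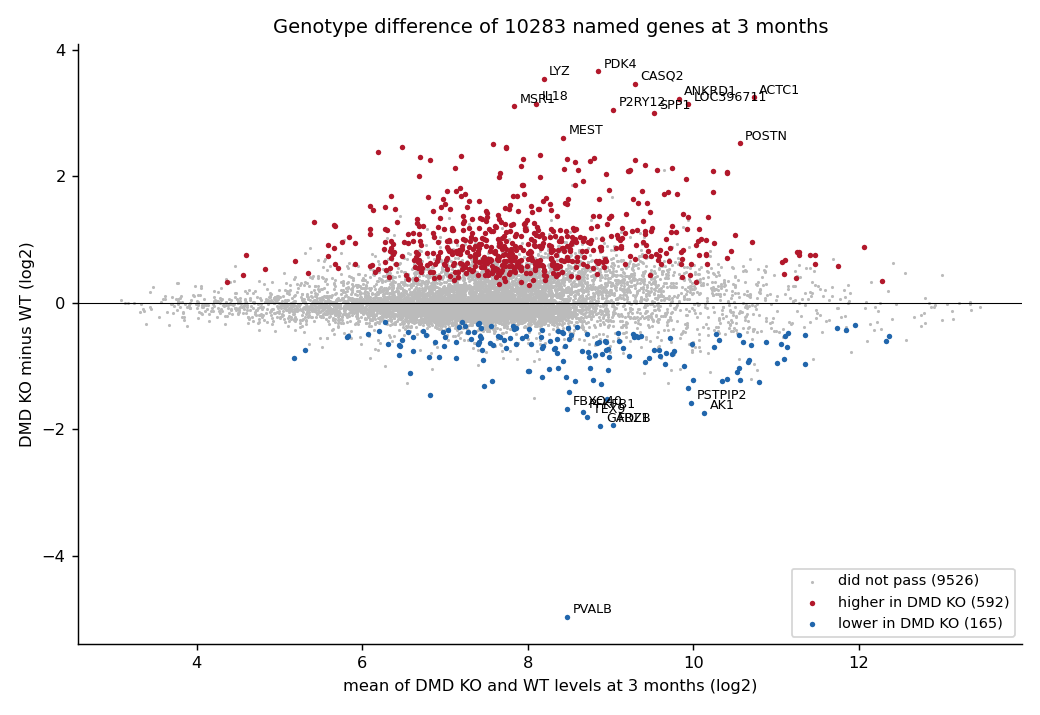
Difference between DMD KO and WT muscle at 3 months (vertical axis, log2) against the mean of the levels of the genotypes (horizontal axis, log2) for 10283 named genes, 1 point each. The 592 red points are higher and the 165 blue points lower in DMD KO, rises reach 3.66 (PDK4) and the lone fall past -2 is PVALB at -4.96.

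The targeted gene itself was measured first. The brighter probe set of DMD read 11.84, 11.65 and 11.53 in the DMD KO animals, against 11.87, 11.81 and 12.01 in the WT animals. The DMD KO values for DMD reach down to 11.53 and their range meets that of the WT animals, and the difference of -0.22 ± 0.18 (SE, adjusted p = 0.528) was not called. Another DMD probe set differed by 0.00 (adjusted p = 0.996). No source used here places these probe sets inside or outside the deletion, so they do not check the genotype. Utrophin (UTRN), the close relative that can take the place of dystrophin at the membrane, read 8.06, 8.10 and 8.30 in the DMD KO animals, against 8.06, 7.23 and 7.62 in the WT animals, and its difference of 0.52 ± 0.19 (SE, adjusted p = 0.145) was not called.

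Of 9 measured genes of the dystrophin complex and its partners, DMD and UTRN among them, 3 passed. Called higher were 22.2% and called lower 11.1%, beside 5.76% and 1.60% over all named genes. LAMA2, a laminin chain that alpha-dystroglycan holds outside the fibre, was 2.56 times higher in DMD KO muscle, and SGCE, the epsilon-sarcoglycan found in many tissues, was 2.37 times higher. SNTB1, the beta-1-syntrophin that binds dystrophin from the inside of the fibre, was 1.70 times lower. SGCE read 8.41, 8.65 and 8.68 in the DMD KO animals, against 7.52, 7.14 and 7.36 in the WT animals, a difference of 1.24 ± 0.17 (SE, adjusted p = 0.000723). LAMA2 read 10.73, 10.72 and 11.13 in the DMD KO animals, against 9.50, 9.47 and 9.53 in the WT animals, a difference of 1.36 ± 0.27 (SE, adjusted p = 0.0105). Neither gene overlapped between genotypes, and LAMA2 was not called without DMD KO replicate 3. SNTB1 read 9.19, 9.52 and 9.46 in the DMD KO animals, against 10.24, 10.16 and 10.05 in the WT animals, again with no overlap, and fell by 0.76 ± 0.12 (SE, adjusted p = 0.00216). The members that sit in the membrane and are made in fibres did not pass. Alpha-sarcoglycan (SGCA) differed by -0.07, beta-sarcoglycan (SGCB) by -0.46 and sarcospan (SSPN) by -0.60 (adjusted p = 0.0765), and the laminin chain LAMB1 by 0.62 (adjusted p = 0.0874). The median difference of the list was -0.07, beside -0.03 over all named genes. Of its 9 genes 7 had an unadjusted p under 0.05 in limma, so a gene that did not pass is not shown to be unchanged.

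The largest difference of any named gene was in calcium handling. Parvalbumin (PVALB), the cytosolic buffer that binds calcium as fast fibres relax, read 5.80, 6.67 and 5.49 in the DMD KO animals, against 11.07, 10.42 and 11.37 in the WT animals. All 3 DMD KO animals lay more than 3 log2 units below all WT animals, and in DMD KO replicates 1 and 3 the probe set lay under the 25th percentile of the arrays. The difference was -4.96 ± 0.32 (SE, adjusted p = 4.82e-06). The pump that returns calcium to the sarcoplasmic reticulum of fast fibres, ATP2A1, was 1.93 times lower, with 10.53, 10.67 and 10.40 in the DMD KO animals, against 11.61, 11.38 and 11.46 in the WT animals and no overlap (difference -0.95 ± 0.15, SE, adjusted p = 0.00214). HRC, which binds calcium inside the reticulum, fell by 0.81 (adjusted p = 0.00216), CAMK2A, a calcium-dependent kinase, by 0.63 (adjusted p = 0.00935), and SYPL2 (mitsugumin 29), a protein of the triad, by 0.62 (adjusted p = 0.0187), a call lost without DMD KO replicate 3 or WT replicate 2. One reticulum buffer moved the other way. CASQ2, the calsequestrin of heart and slow fibres, read 11.09, 11.02 and 10.96 in the DMD KO animals, against 7.93, 7.73 and 7.01 in the WT animals. It was 11 times higher in DMD KO muscle (difference 3.46 ± 0.25, SE, adjusted p = 9.87e-06), with little spread among the DMD KO animals. CASQ1, the calsequestrin of fast fibres, differed by -0.37 and the release channel RYR1 by -0.34, neither of them called. Of the 18 measured genes of calcium buffering and the reticulum, 5 fell and 2 rose, with a median difference of -0.31. ASPH, the other gene that rose, by 0.52, was not called when any 1 of the 6 animals was left out.

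Counts of called genes differed among the lists of fast-fibre, slow-fibre and developing-muscle genes. Of the 7 measured fast-fibre genes 2 fell and none rose, of 9 slow-fibre genes none passed, and of 7 isoforms and markers of developing muscle 5 rose. ACTN3, the alpha-actinin of fast Z-discs, read 9.98, 10.06 and 9.81 in the DMD KO animals, against 11.06, 10.89 and 11.57 in the WT animals. Every DMD KO value lay below every WT value, by 2.33 times on average (difference -1.22 ± 0.17, SE, adjusted p = 0.0011). TNNC2, the troponin C of fast fibres, fell by 0.61 (adjusted p = 0.0199), a call lost without DMD KO replicate 3 or WT replicate 3. The heavy chain MYH1 of fast fibres stood at a mean of 12.26 in DMD KO and 12.26 in WT muscle. The slow heavy chain MYH7 read 11.55, 11.91 and 11.42 in the DMD KO animals, against 11.76, 12.33 and 10.46 in the WT animals, and the low value of WT replicate 3 gave it a standard error of 0.35 around a difference of 0.11. Among slow-fibre genes MYL3 (difference -1.05, adjusted p = 0.124) and LMOD2 (difference 1.04, adjusted p = 0.0898) had the largest differences, in opposite directions. With no gene called on the slow-fibre list, 4 of its members had an unadjusted p under 0.05 in the same limma test. The sign of its median difference, 0.11, was not stable, since the median ran from -0.25 to 0.36 when 1 animal was left out.

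ACTC1, the cardiac alpha-actin that skeletal fibres make while they form, read 12.46, 12.38 and 12.23 in the DMD KO animals, against 8.84, 9.01 and 9.47 in the WT animals. The DMD KO animals stood together and 9.49 times above the WT animals (difference 3.25 ± 0.23, SE, adjusted p = 8.16e-06). Another ACTC1 probe set differed by 2.18, with an adjusted p of 0.000336. NCAM1, the adhesion molecule that denervated and regenerating fibres and satellite cells carry, was 2.58 times higher (difference 1.37 ± 0.12, SE, adjusted p = 3e-05), MYL4, the embryonic and atrial light chain, 2.04 times higher (difference 1.03 ± 0.18, SE, adjusted p = 0.00417), and MEST, an imprinted gene of fetal mesoderm, 6.09 times higher (difference 2.61 ± 0.25, SE, adjusted p = 6.65e-05). MEST read 9.76, 9.78 and 9.65 in the DMD KO animals, against 7.51, 6.98 and 6.88 in the WT animals. CHRNG, the fetal subunit of the acetylcholine receptor, rose by 0.51 (adjusted p = 0.0283), a call lost on leaving out any of 5 of the 6 animals. Of 10 measured genes of satellite cells and regeneration 3 rose and none fell. They were HGF, the growth factor that wakes satellite cells, by 1.64 (adjusted p = 6.76e-05), its receptor MET by 1.10 (adjusted p = 0.0238), and VCAM1 by 0.97 (adjusted p = 0.0163). MET was not called without DMD KO replicate 2 or 3 or WT replicate 2, and VCAM1 not without DMD KO replicate 2 or 3 or WT replicate 2 or 3, so that between 1 and 4 members were called when 1 animal was left out. The muscle transcription factors MYOG and MYF6 differed by 0.34 and 0.29 and were not called.

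Stretch-linked genes of the sarcomere rose in part. ANKRD1, a titin-binding protein made when muscle is stretched or damaged, read 11.73, 11.41 and 11.17 in the DMD KO animals, against 8.67, 8.57 and 7.40 in the WT animals, a 9.35-fold difference (difference 3.23 ± 0.63, SE, adjusted p = 0.00919). CSRP3, the muscle LIM protein of the Z-disc, read 11.83, 11.86 and 10.59 in the DMD KO animals, against 9.51, 10.67 and 7.97 in the WT animals and was called higher at 2.04 (adjusted p = 0.0346) although its genotypes overlapped. For both genes WT replicate 3 was the lowest animal. ACTN2 rose by 0.61 (adjusted p = 0.0334) and LDB3 fell by 0.66 (adjusted p = 0.0437). CSRP3 and ACTN2 were not called without DMD KO replicate 1 or 2 or WT replicate 1 or 3, and LDB3 not without DMD KO replicate 3 or any 1 of the WT animals. These are 4 of 24 measured genes of the Z-disc, M-band and stretch response, whose median difference was 0.03. Of muscle atrophy genes FBXO40, an F-box protein of muscle that marks the insulin receptor substrate for breakdown, read 7.44, 7.78 and 7.70 in the DMD KO animals, against 9.57, 9.20 and 9.18 in the WT animals and fell by 1.68 ± 0.18 (SE, adjusted p = 0.000182). The ubiquitin ligase FBXO32 (atrogin-1) differed by 1.19 and FOXO3 by 0.73, neither of them called. Myostatin (MSTN), the secreted inhibitor of muscle growth, read 8.18, 8.27 and 8.08 in the DMD KO animals, against 9.62, 9.06 and 9.55 in the WT animals and was 2.35 times lower without overlap (difference -1.23 ± 0.20, SE, adjusted p = 0.00299).

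**Figure D2:**
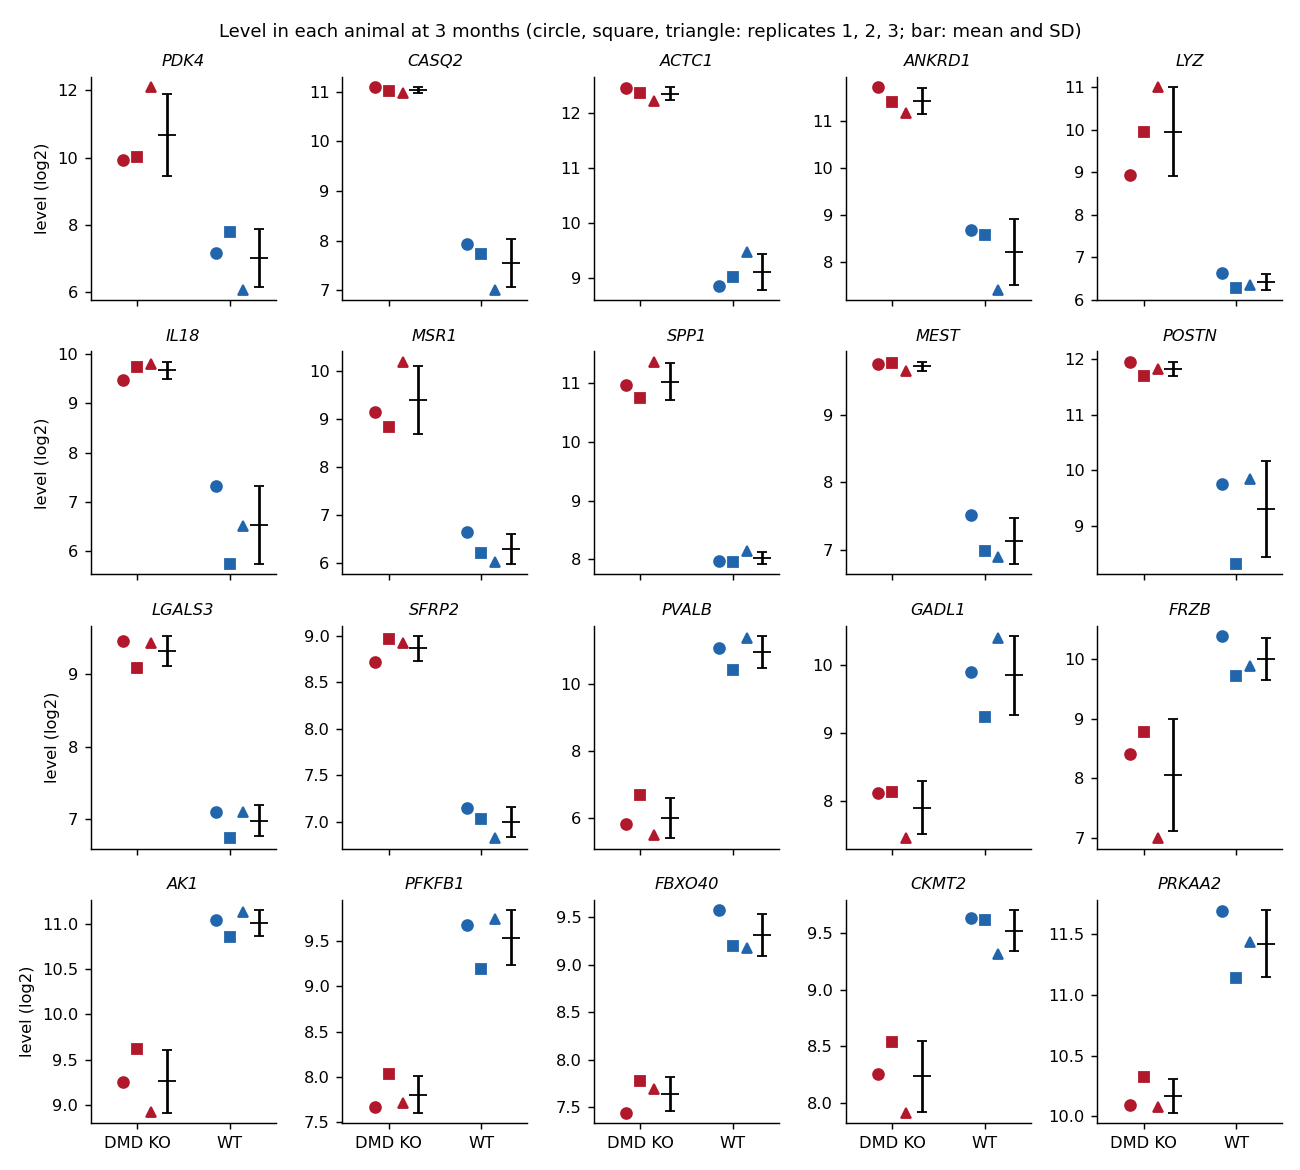
Level (vertical axes, log2, a different range in each panel) of 20 genes in each animal at 3 months, DMD KO in red and WT in blue, with the mean and SD of 3 animals beside the points. The 20 genes were picked among the called genes, and 753 of the 757 called genes do not overlap between genotypes. The lack of overlap in all 20 panels therefore follows from the choice. DMD KO replicate 3 stands apart from the other DMD KO animals for PDK4, MSR1 and FRZB.

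Many macrophage genes rose. Of 21 measured macrophage markers 13 were higher in DMD KO muscle and none lower, with a median difference of 0.94. The mean level of the list was 8.34, 8.47 and 8.87 in the DMD KO animals, against 7.42, 7.27 and 7.13 in the WT animals, so the least of the DMD KO animals stood above the highest WT animal, and DMD KO replicate 3 was highest. LYZ (lysozyme) read 8.93, 9.95 and 11 in the DMD KO animals, against 6.63, 6.29 and 6.34 in the WT animals. MSR1, the type A scavenger receptor, read 9.15, 8.83 and 10.19 in the DMD KO animals, against 6.63, 6.21 and 6.02 in the WT animals. VSIG4, the complement receptor of resident macrophages, read 8.11, 8.78 and 9.60 in the DMD KO animals, against 6.42, 6.13 and 6.42 in the WT animals. All 3 were near or below the 25th percentile in WT muscle and rose by 3.54 (adjusted p = 0.000102), 3.10 (adjusted p = 4.16e-05) and 2.51 (adjusted p = 0.000157), with DMD KO replicate 3 the highest animal for each. SPP1 (osteopontin), a secreted protein that macrophages and regenerating fibres make in injured muscle, read 10.97, 10.74 and 11.37 in the DMD KO animals, against 7.98, 7.95 and 8.14 in the WT animals, 8.01 times higher in DMD KO muscle (difference 3.00 ± 0.19, SE, adjusted p = 4.47e-06). LGALS3 (galectin-3), a lectin of macrophages, was 5.06 times higher (difference 2.34 ± 0.13, SE, adjusted p = 1.6e-06), with 9.45, 9.09 and 9.42 in the DMD KO animals, against 7.11, 6.74 and 7.10 in the WT animals.

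The defining macrophage markers did not move as one. MRC1, the mannose receptor, read 8.47, 8.82 and 9.93 in the DMD KO animals, against 7.36, 6.71 and 6.32 in the WT animals and rose by 2.28 (adjusted p = 0.00144). The complement chains C1QB and C1QC rose by 0.94 (adjusted p = 0.00677) and 0.90 (adjusted p = 0.0115), and C1QC was not called without DMD KO replicate 3 or WT replicate 3. The receptor CSF1R differed by -0.04 (adjusted p = 0.875) and C1QA by 0.08 (adjusted p = 0.722), although both lay at or above percentile 61.1 of every one of the 6 arrays. CD68, CD163 and CD14 had no probe set with their symbol alone here. None of the 21 markers was below the 25th percentile on all 6 arrays. Among the genes with the largest rises, the transcription factor TFEC, known from macrophages, rose by 2.46 (adjusted p = 0.000423). P2RY12, an ADP receptor of platelets and microglia, read 10.28, 10.68 and 10.69 in the DMD KO animals, against 8.52, 7.35 and 6.64 in the WT animals and was 8.27 times higher (adjusted p = 0.000381). The locus LOC396711 read 11.54, 11.67 and 11.30 in the DMD KO animals, against 8.51, 8.18 and 8.42 in the WT animals, 8.80 times higher (adjusted p = 5.23e-05). SMPDL3A, a phosphodiesterase of the sphingomyelinase family, rose by 2.46 (adjusted p = 0.00143).

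Markers of other immune cells did not show this pattern. None of 17 measured T and NK cell markers passed (median difference -0.09), and 2 of them had an unadjusted p under 0.05 in limma. The chains CD3D and CD3E of the T cell receptor differed by -0.14 and -0.05, CD2 by -0.38 and CD8A by -0.27. The marker NKG7 went the other way, at 0.47 (adjusted p = 0.0536 in limma), and was not called. Of the 17 markers 5, GZMA among them, were below the 25th percentile on all 6 arrays. Of 7 B and plasma cell markers 1 rose, BLNK, an adaptor of B cells that macrophages also carry, by 1.01 (adjusted p = 0.00277), while CD79A differed by -0.17 and CD79B by -0.14. Of 7 neutrophil and mast cell markers 1 rose, MS4A2, the beta chain of the IgE receptor, by 0.96 (adjusted p = 0.0044). Of 23 interferon-response genes none was called, and 0 had an unadjusted p under 0.05. The chemokine CXCL10 read 6.49, 7.79 and 6.44 in the DMD KO animals, against 8.19, 9.82 and 5.66 in the WT animals, a spread among animals wider than the genotype difference of -0.98 ± 1.09 (SE). WT replicate 2 was the highest animal for CXCL10 and for IFIT1, which differed by -0.71.

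Complement genes rose in the majority of measured members. Of 13 complement components and regulators 9 were higher and none lower, with a median difference of 0.69. CFI, the protease that cuts C3b, read 7.87, 7.99 and 7.99 in the DMD KO animals, against 6.05, 5.71 and 5.33 in the WT animals and rose by 2.26 ± 0.19 (SE, adjusted p = 2.83e-05). Clusterin (CLU), a regulator of the terminal complex, was 2.80 times higher (difference 1.49 ± 0.19, SE, adjusted p = 0.000599), and C1S, a protease of the first component, was 2.34 times higher (difference 1.22 ± 0.24, SE, adjusted p = 0.00919). The terminal components C9 and C7 rose by 1.49 (adjusted p = 0.00317) and 0.97 (adjusted p = 0.0054). The genotypes did not overlap for any of the 5 genes.

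Of 31 measured cytokines, chemokines and receptors 4 rose (12.9%, beside 5.76% of all named genes) and none fell. IL18, a cytokine of the inflammasome, read 9.47, 9.75 and 9.80 in the DMD KO animals, against 7.33, 5.74 and 6.51 in the WT animals and rose by 3.15 ± 0.29 (SE, adjusted p = 5.23e-05), the largest rise of the group. CXCL14 was 2.94 times higher (difference 1.56 ± 0.16, SE, adjusted p = 0.000149) and IL1R1, the receptor of interleukin-1, 3.14 times higher (difference 1.65 ± 0.33, SE, adjusted p = 0.01), a call lost without DMD KO replicate 3 or WT replicate 2. OSMR, the receptor of oncostatin M, rose by 1.26 (adjusted p = 0.000198), while another OSMR probe set differed by 0.35 and was not called. The genes TNF, IL6 and IL10 differed by -0.26, 0.28 and -0.00 and were not called. Of 21 genes of the MHC and antigen presentation 3 rose (14.3%, beside 5.76% of all named genes). The costimulatory ligands CD86 and CD80 rose by 1.30 (adjusted p = 0.000688) and 1.16 (adjusted p = 0.00158), and SLA-DQB1 by 0.57 (adjusted p = 0.0485), a call lost on leaving out any of 5 of the 6 animals. The class II chain SLA-DRA differed by 0.16 and the class I partner B2M by -0.25.

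Lysosomal and autophagy genes followed the same direction, with 12 of 28 higher, none lower and a median difference of 0.34. The cathepsin CTSH read 9.27, 9.44 and 10.11 in the DMD KO animals, against 7.76, 7.17 and 7.10 in the WT animals, 4.81 times higher without overlap (difference 2.27 ± 0.22, SE, adjusted p = 7.3e-05). The lysosomal acid lipase LIPA was 4.29 times higher (difference 2.10 ± 0.25, SE, adjusted p = 0.000341), CTSK 2.58 times higher (difference 1.37 ± 0.23, SE, adjusted p = 0.00316) and CTSC 2.52 times higher (difference 1.33 ± 0.32, SE, adjusted p = 0.0287). GABARAPL1, which coats forming autophagosomes, was called at 1.72 (adjusted p = 0.0115) on its brighter probe set, whereas its other probe set differed by 0.67 and was not called. DMD KO replicate 3 was the highest animal for all 5 of these genes. CTSC was not called without DMD KO replicate 2 or 3 or WT replicate 2 or 3, and GABARAPL1 not without DMD KO replicate 3 or WT replicate 3. Without either of the last pair the lysosome count was 6 of 28, and without DMD KO replicate 1 the complement count was 7 of 13. The macrophage list mean, which ran from 8.34 to 8.87 across the DMD KO animals and from 7.13 to 7.42 across the WT animals, was higher in DMD KO muscle as these genes were, and its part in their differences was not tested. Among the DMD KO animals the lysosome list mean had the same order as the macrophage list, at 8.48, 8.55 and 8.82 in replicates 1 to 3. The complement list, at 7.95, 7.74 and 7.90, and the cytokine list, at 7.75, 7.91 and 7.75, did not. The proteasome list, at 8.96, 9.03 and 9.25, and the fatty acid list, at 8.62, 8.73 and 8.83, also had that order. What sets the order of 3 animals was not tested.

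**Figure D3:**
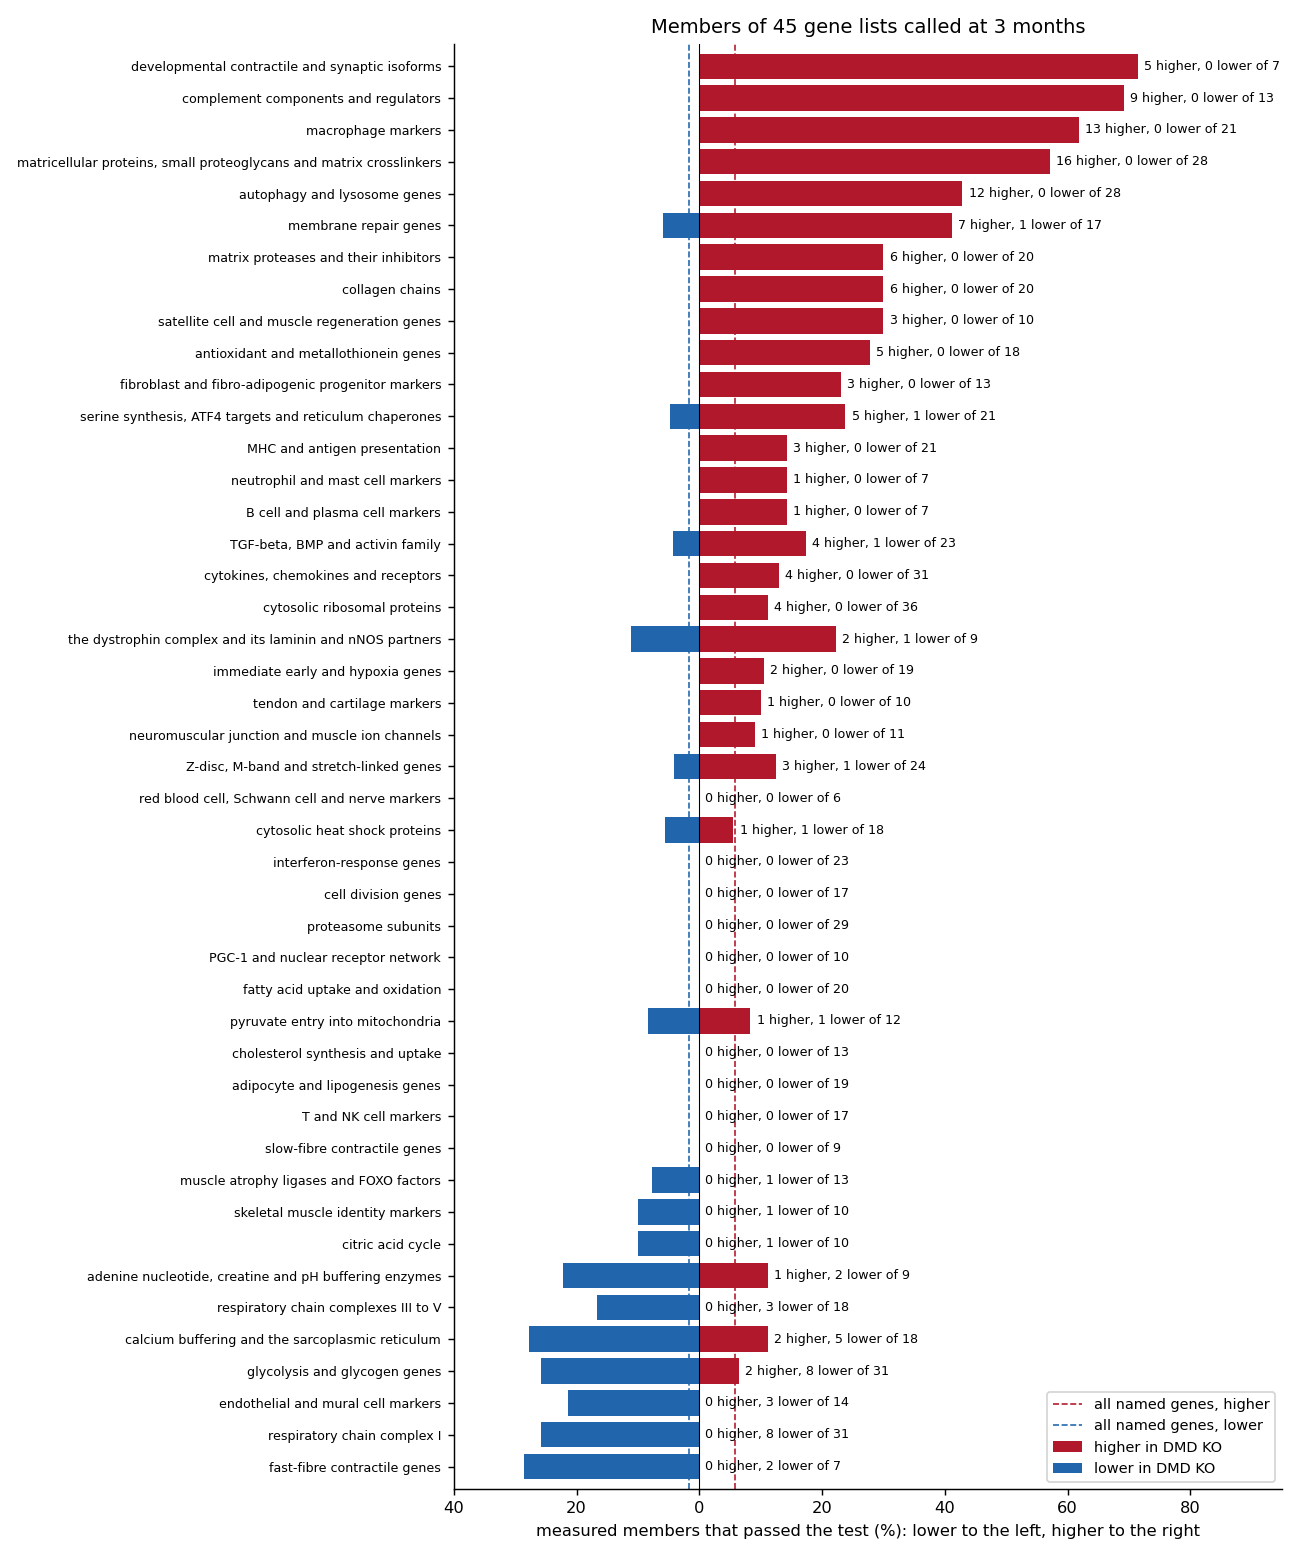
Share of the measured members of 45 gene lists that passed the test at 3 months (horizontal axis, %), with members higher in DMD KO drawn to the right in red and members lower drawn to the left in blue, and the counts printed beside the bars. Dashed lines mark the shares over all named genes, 5.76% higher and 1.60% lower, and lists of developing muscle, complement, macrophages and matrix reach farthest to the right.

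Genes of the extracellular matrix were higher in many measured members. Of 28 matricellular proteins, small proteoglycans and crosslinkers 16 were higher and none lower, with a median difference of 0.82. Of 20 collagen chains 6 were higher and none lower, with a median difference of 0.15. Periostin (POSTN), a matricellular protein of healing tissue, read 11.95, 11.69 and 11.82 in the DMD KO animals, against 9.74, 8.31 and 9.85 in the WT animals. The DMD KO animals were 5.74 times higher without overlap (difference 2.52 ± 0.40, SE, adjusted p = 0.00244), and WT replicate 2 was well below the other WT animals. Asporin (ASPN), a small proteoglycan that binds TGF-beta, read 11.40, 11.20 and 11.21 in the DMD KO animals, against 9.78, 8.18 and 9.60 in the WT animals and showed the same low WT animal, with a 4.24-fold difference (difference 2.09 ± 0.33, SE, adjusted p = 0.00214). Versican (VCAN) was 4.25 times higher (difference 2.09 ± 0.31, SE, adjusted p = 0.00152) and thrombospondin 1 (THBS1), which activates latent TGF-beta, 4.29 times higher (difference 2.10 ± 0.21, SE, adjusted p = 8.67e-05). CTHRC1, a secreted collagen-like protein of activated fibroblasts, rose by 2.32 (adjusted p = 1.13e-05). The adhesion proteins fibronectin (FN1) and tenascin C (TNC) had differences of 1.96 and 1.55, and the crosslinking enzyme LOX of 1.63.

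Among collagens the chains that coat or link fibrils had the largest differences. COL12A1, a fibril-associated collagen, read 9.57, 9.51 and 9.78 in the DMD KO animals, against 7.75, 7.59 and 7.77 in the WT animals and was 3.78 times higher (difference 1.92 ± 0.23, SE, adjusted p = 0.000381). COL6A3, a chain of the beaded collagen around muscle fibres, read 10.58, 10.53 and 10.62 in the DMD KO animals, against 9.31, 8.94 and 9.28 in the WT animals, 2.64 times higher (difference 1.40 ± 0.12, SE, adjusted p = 3e-05). The fibril collagen COL3A1 read 9.71, 9.55 and 9.59 in the DMD KO animals, against 8.72, 8.48 and 8.45 in the WT animals and was 2.10 times higher (difference 1.07 ± 0.11, SE, adjusted p = 0.000102). COL14A1 rose by 1.21 (adjusted p = 0.00449) and COL5A2 by 0.82 (adjusted p = 0.000158). None of the 5 chains overlapped between genotypes. The main fibril chain COL1A1 differed by 0.44 and the basement membrane chains COL4A1 and COL4A2 by -0.04 and -0.10, without passing.

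Of 20 matrix proteases and inhibitors 6 rose. PLAU (urokinase), which activates plasmin, read 9.43, 10.19 and 9.42 in the DMD KO animals, against 7.71, 7.45 and 7.23 in the WT animals, 4.66 times higher without overlap (difference 2.22 ± 0.19, SE, adjusted p = 3e-05). ADAM17, the sheddase that frees TNF from cells, was 2.19 times higher (difference 1.13 ± 0.19, SE, adjusted p = 0.0041) and the gelatinase MMP2 1.76 times higher (difference 0.81 ± 0.14, SE, adjusted p = 0.00351). The inhibitor TIMP1 rose by 0.55 (adjusted p = 0.0114), and MMP19 by 0.40 (adjusted p = 0.0291). TIMP1 was not called without DMD KO replicate 3, and MMP19 not without DMD KO replicate 1 or 3 or WT replicate 1 or 3. Without DMD KO replicate 3 the count was 3 of 20.

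Fibroblast markers differed among themselves. FAP, the protease of activated fibroblasts, read 10.18, 10.31 and 10.33 in the DMD KO animals, against 8.83, 7.56 and 8.16 in the WT animals and was 4.25 times higher (difference 2.09 ± 0.27, SE, adjusted p = 0.000615). SFRP2, a secreted Wnt modulator of fibroblasts, was 3.64 times higher on the brighter probe set (difference 1.87 ± 0.11, SE, adjusted p = 2.81e-06) and differed by 4.21 on another. DPP4 rose by 0.58 (adjusted p = 0.0475), a call that did not hold when any 1 animal was left out. THY1 differed by 0.52 (adjusted p = 0.112), DPT by 0.12 and PDGFRB by -0.12, none of them called, and PDGFRA was not measured under its symbol alone. In all 3 of 13 markers rose. The mean level of the fibroblast list was 8.13, 8.21 and 8.04 in the DMD KO animals, against 7.86, 7.75 and 7.71 in the WT animals, which did not overlap, and its part in the matrix differences was not tested. Of 10 tendon and cartilage markers 1, CILP, rose (10%, beside 5.76% of all named genes), by 0.58 (adjusted p = 0.00829).

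In the TGF-beta, BMP and activin family 4 of 23 measured genes rose and 1, MSTN, fell. ID2, a target of BMP signals, rose by 1.32 (adjusted p = 0.0117). The receptors TGFBR1, TGFBR3 and ACVR1 rose by 1.0 (adjusted p = 0.032), 0.61 (adjusted p = 0.0137) and 0.51 (adjusted p = 0.0238). ID2 was not called without WT replicate 2, TGFBR1 not without replicate 2 or 3 of either genotype, TGFBR3 not without DMD KO replicate 3 or WT replicate 2 or 3, and ACVR1 not without WT replicate 3 or any 1 of the DMD KO animals. Leaving out 1 animal gave between 1 and 4 members called higher and between 1 and 3 called lower. The ligands TGFB2 and TGFB3 differed by 0.21 and 0.25, and the median of the list was -0.04. FRZB, a secreted inhibitor of Wnt signals and among the genes with the largest falls, read 8.40, 8.77 and 6.99 in the DMD KO animals, against 10.39, 9.71 and 9.89 in the WT animals, 3.84 times lower (difference -1.94 ± 0.40, SE, adjusted p = 0.0114). The call on FRZB was lost on the 6 arrays at 3 months alone.

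Genes of proteins that can patch a torn membrane were higher in several measured members. Of 17 measured membrane repair genes 7 were higher and 1 lower, with a median difference of 0.35. Annexin A2 (ANXA2), which binds calcium and phospholipid at the lesion, read 11.39, 11.37 and 11.55 in the DMD KO animals, against 9.84, 8.95 and 9.31 in the WT animals, 4.20 times higher (difference 2.07 ± 0.19, SE, adjusted p = 5.35e-05). Its partner S100A11 read 11.10, 10.96 and 11.29 in the DMD KO animals, against 9.89, 8.90 and 9.29 in the WT animals, 3.38 times higher (difference 1.76 ± 0.23, SE, adjusted p = 0.000688). ANXA1 and ANXA4 rose by 1.57 (adjusted p = 0.00188) and 1.27 (adjusted p = 0.00474), and myoferlin (MYOF), a ferlin of dividing and fusing myoblasts, by 1.56 (adjusted p = 0.000177). Each of these genes separated the genotypes without overlap, and many of them are also made by macrophages and fibroblasts. BIN1, which shapes the transverse tubules, fell by 0.76 (adjusted p = 0.0105). The muscle-specific repair proteins dysferlin (DYSF) and TRIM72 differed by 0.18 and -0.22 and were not called.

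**Figure D4:**
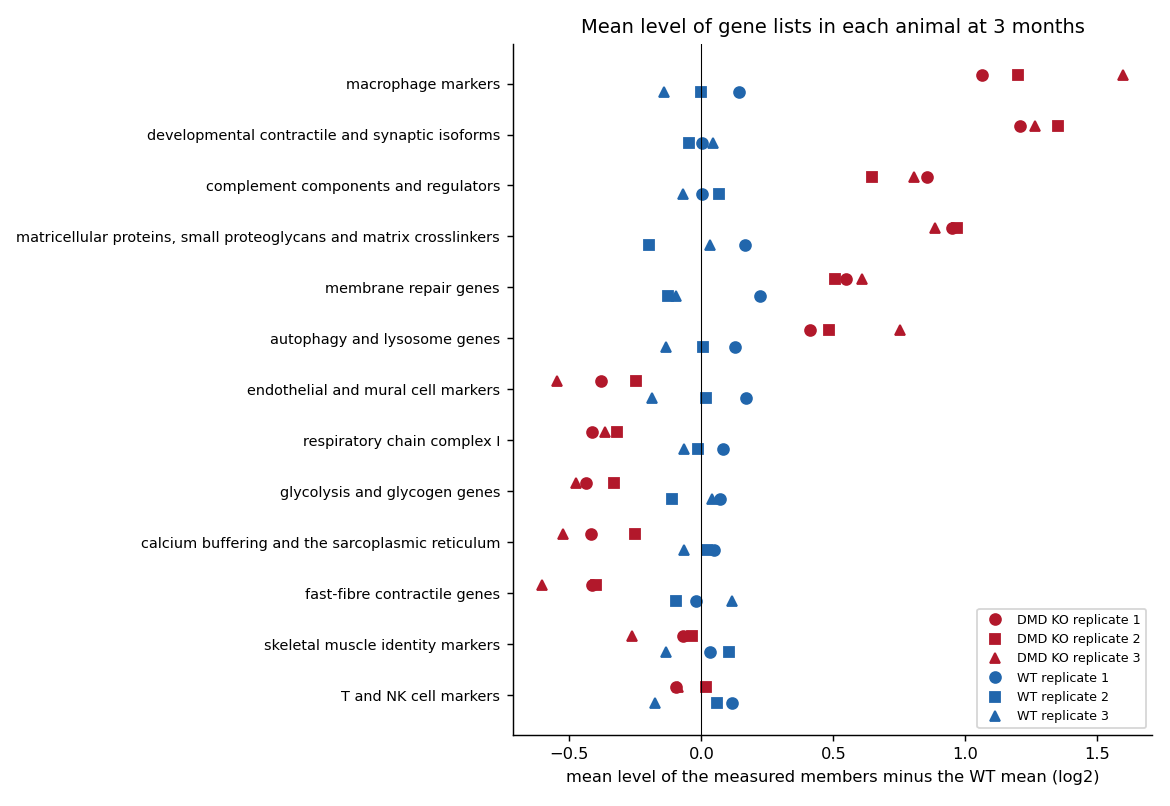
Mean level of the measured members of 13 gene lists in each animal at 3 months, drawn as the distance from the WT mean of the list (horizontal axis, log2), with DMD KO in red above WT in blue and 1 symbol per replicate. DMD KO animals lie to the right of all WT animals for the macrophage, developmental, complement, matricellular, membrane repair and lysosome lists, to the left for the endothelial, complex I, glycolysis, calcium and fast-fibre lists, and among them for muscle identity and T and NK cells.

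Several genes of energy supply were lower in DMD KO muscle. Of 31 genes of glycolysis and glycogen 8 fell and 2 rose, with a median difference of -0.33. PFKFB1, which makes and removes the activator of phosphofructokinase, read 7.67, 8.03 and 7.71 in the DMD KO animals, against 9.67, 9.19 and 9.74 in the WT animals, 3.31 times lower without overlap (difference -1.73 ± 0.26, SE, adjusted p = 0.00177). Triosephosphate isomerase (TPI1) read 9.72, 9.91 and 9.53 in the DMD KO animals, against 11.15, 10.78 and 10.97 in the WT animals, 2.37 times lower (difference -1.24 ± 0.15, SE, adjusted p = 0.000344). PGAM2, the muscle phosphoglycerate mutase, fell by 1.10 (adjusted p = 0.00169), and PGM1, which links glycogen to glycolysis, by 1.03 (adjusted p = 0.0155). PPP1R3A, the subunit that brings protein phosphatase 1 to glycogen in muscle, fell by 1.21 (adjusted p = 0.044) and lost its call without any 1 of the animals. The hexokinases HK1 and HK2, which start glycolysis, went the other way, by 0.63 (adjusted p = 0.0106) and 0.57 (adjusted p = 0.0427). Neither of them was called without DMD KO replicate 3 or WT replicate 3, nor HK2 without DMD KO replicate 1 or 2 or WT replicate 2, nor PGM1 without DMD KO replicate 1 or 3 or WT replicate 3.

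Some enzymes that pass phosphate between ATP stores were lower. AK1, the adenylate kinase of muscle cytosol, read 9.25, 9.62 and 8.92 in the DMD KO animals, against 11.04, 10.85 and 11.13 in the WT animals, 3.35 times lower (difference -1.74 ± 0.26, SE, adjusted p = 0.0017). CKMT2, the creatine kinase of muscle mitochondria, read 8.26, 8.54 and 7.91 in the DMD KO animals, against 9.64, 9.62 and 9.32 in the WT animals, 2.44 times lower (difference -1.29 ± 0.20, SE, adjusted p = 0.00184). Neither gene overlapped, and DMD KO replicate 3 was the lowest animal for both. GATM, which makes the precursor of creatine, rose by 0.70 (adjusted p = 0.0181), so 2 of the 9 genes of nucleotide, creatine and pH buffering fell and 1 rose. GATM was not called without DMD KO replicate 3 or WT replicate 3. PRKAA2, the catalytic alpha-2 subunit of the AMP-activated kinase, read 10.10, 10.33 and 10.08 in the DMD KO animals, against 11.69, 11.14 and 11.43 in the WT animals, 2.38 times lower (difference -1.25 ± 0.22, SE, adjusted p = 0.00499). STRADB, a pseudokinase that binds the upstream kinase LKB1, was 2.55 times lower (difference -1.35 ± 0.22, SE, adjusted p = 0.00285).

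In mitochondria, 8 of 31 measured genes of complex I, the entry of NADH into the respiratory chain, fell and none rose. Of the 31 differences 29 were below 0, beside 5756 of the 10283 over all named genes. The median difference was -0.36. NDUFB11 read 8.77, 9.26 and 8.81 in the DMD KO animals, against 9.91, 9.82 and 9.93 in the WT animals (difference -0.94 ± 0.14, SE, adjusted p = 0.00148), and NDUFB1 read 9.23, 8.97 and 9.30 in the DMD KO animals, against 10.15, 9.95 and 10.32 in the WT animals (difference -0.97 ± 0.22, SE, adjusted p = 0.0181). NDUFC1, NDUFB6 and NDUFB2 fell by 0.80 (adjusted p = 0.027), 0.75 (adjusted p = 0.03) and 0.68 (adjusted p = 0.0106). All 5 are subunits that support the enzyme rather than its catalytic core, and each was called lower without overlap. NDUFC1 and NDUFB6 were not called when any 1 of the 6 animals was left out, and NDUFB1 not without DMD KO replicate 2 or WT replicate 3. Leaving out 1 animal gave between 3 called members, without WT replicate 3, and 6. Of complexes III to V 3 of 18 fell, ATP5G1 by 0.84 (adjusted p = 0.0142), COX6C by 0.51 (adjusted p = 0.0456) and UQCRB by 0.48 (adjusted p = 0.022), and leaving out 1 animal gave between 0 and 3. The call on ATP5G1 was lost without DMD KO replicate 1 or 3 or WT replicate 2, and those on COX6C and UQCRB without any 1 of the animals but WT replicate 3. In the citric acid cycle SUCLG1, a subunit of succinyl-CoA ligase, fell by 0.48 (adjusted p = 0.0207), 1 of 10 genes, and was not called without DMD KO replicate 1 or 3 or WT replicate 2.

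PDK4, the kinase that shuts pyruvate dehydrogenase and so spares glucose, had the largest rise of all named genes. It read 9.93, 10.01 and 12.10 in the DMD KO animals, against 7.18, 7.80 and 6.08 in the WT animals. The lowest DMD KO animal stood above the highest WT animal by more than 2 log2 units, and DMD KO replicate 3 was set apart from the other DMD KO animals. The difference was 3.66 ± 0.61 (SE, adjusted p = 0.00322), 12.6 times on the linear scale. PDHX, a structural subunit of pyruvate dehydrogenase, fell by 0.65 (adjusted p = 0.0481) and was the other called gene of 12 genes of pyruvate entry, a call lost without any 1 of the animals but WT replicate 2. Fatty acid genes did not pass in any of 20 members, 4 of which had an unadjusted p under 0.05, and ACADL (0.61) and ANGPTL4 (0.50) had the largest differences. The same held for 19 adipocyte and lipogenesis genes, with 2 at an unadjusted p under 0.05 in limma. Of these 19 differences 17 were below 0, beside 5756 of the 10283 over all named genes, and the median was -0.12. The adipocyte markers PLIN1, CIDEC and LEP differed by -0.17, -0.15 and -0.02 and were not called. PLIN2, the coat protein of lipid droplets, read 10.31, 10.03 and 11.75 in the DMD KO animals, against 8.84, 9.17 and 7.79 in the WT animals and missed the threshold at a difference of 2.10 ± 0.59 (SE, adjusted p = 0.0581), again with DMD KO replicate 3 highest. None of 10 genes of the PGC-1 network passed (1 at an unadjusted p under 0.05), and ESRRG differed by -0.92 (adjusted p = 0.0541). Of 13 cholesterol genes none passed (6 at an unadjusted p under 0.05), with CYP51 at -0.63 (adjusted p = 0.0844).

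Vessel genes were lower in 3 of 14 measured members. Of the 14 differences 13 were below 0, beside 5756 of the 10283 over all named genes, and the median was -0.37. ANGPT2, a vessel-remodelling ligand, fell by 1.23 (adjusted p = 0.0253), RGS5, a pericyte gene, by 0.74 (adjusted p = 0.013), and FLT1, a receptor of vascular endothelial growth factor, by 0.57 (adjusted p = 0.00777). FLT1 read 6.99, 7.09 and 6.97 in the DMD KO animals, against 7.71, 7.58 and 7.50 in the WT animals. The call on ANGPT2 was lost without DMD KO replicate 1 or 3 or WT replicate 1 or 2. The defining endothelial markers PECAM1 (-0.48, adjusted p = 0.109), KDR (-0.65, adjusted p = 0.12) and VWF (-0.06, adjusted p = 0.774) were not called. Of 6 blood and nerve markers none passed, and 0 had an unadjusted p under 0.05. Haemoglobin beta (HBB) lay below the 25th percentile in all 6 animals and differed by -0.56.

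Of reticulum chaperones 5 were called higher, 4 of them calls lost without single animals, and the stress regulator ATF4 fell. HSPA5 (BiP), the main chaperone of the reticulum, was 1.92 times higher (difference 0.94 ± 0.23, SE, adjusted p = 0.0307) and calreticulin (CALR) 1.75 times higher (difference 0.81 ± 0.15, SE, adjusted p = 0.00682). The disulphide isomerases PDIA3, PDIA4 and PDIA6 rose by 0.75 (adjusted p = 0.0211), 0.54 (adjusted p = 0.0234) and 0.47 (adjusted p = 0.0393). ATF4, the transcription factor of the integrated stress response, read 9.38, 9.38 and 9.40 in the DMD KO animals, against 10.43, 10.44 and 10.32 in the WT animals, 2.01 times lower without overlap (difference -1.01 ± 0.14, SE, adjusted p = 0.000827). Its targets ASNS, CHAC1 and DDIT3 differed by -0.28, -0.40 and -0.10 and were not called. These are 5 genes higher and 1 lower of 21. Only CALR of the 5 kept its call whichever 1 of the 6 animals was left out, and between 1 (without DMD KO replicate 3, WT replicate 2 or WT replicate 3) and 7 members were called higher. Of cytosolic heat shock proteins HSP90AB1 rose by 0.76 (adjusted p = 0.0388) and DNAJB5 fell by 0.85 (adjusted p = 0.0177), of 18 measured. That is 5.56% higher and 5.56% lower, beside 5.76% and 1.60% over all named genes. HSP90AB1 was not called when any 1 of the 6 animals was left out, and DNAJB5 not without DMD KO replicate 1 or 3 or WT replicate 1 or 2.

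Among antioxidant genes 5 of 18 rose. Thioredoxin (TXN) read 10.43, 10.45 and 10.82 in the DMD KO animals, against 9.12, 8.46 and 8.86 in the WT animals, 3.37 times higher (difference 1.75 ± 0.26, SE, adjusted p = 0.00168). NFE2L2 (NRF2), the transcription factor of the antioxidant response, rose by 0.75 (adjusted p = 0.0141), GSTM3 by 0.95 (adjusted p = 0.000432) and PRDX1 by 0.63 (adjusted p = 0.0238). The ferritin light chain (FTL) rose by 0.97 (adjusted p = 0.00565) on the brighter probe set and differed by 0.07 on another. NFE2L2 was not called without DMD KO replicate 3 or WT replicate 2, and PRDX1 not without DMD KO replicate 2 or 3 or WT replicate 3, and 3 of the 18 were called without DMD KO replicate 3. The NRF2 targets GCLM and NQO1 differed by 0.01 and -0.44 and were not called. Of 36 ribosomal protein genes 4 rose (11.1%, beside 5.76% of all named genes), RPL3 most, by 0.84 (adjusted p = 0.00322), and leaving out 1 animal gave between 1 and 2. Of the 36 differences 32 were above 0, beside 4527 of the 10283 over all named genes, and the median was 0.22. The ribosomal list mean did not overlap, at 9.56, 9.56 and 9.70 in the DMD KO animals, against 9.37, 9.33 and 9.45 in the WT animals. Of immediate early and hypoxia genes CDKN1A (p21), an inhibitor of the cell cycle, rose by 0.61 (adjusted p = 0.01) and KLF5 by 0.58 (adjusted p = 0.0421), of 19 measured (10.5%, beside 5.76% of all named genes). The call on CDKN1A was lost without DMD KO replicate 3 or WT replicate 3, and that on KLF5 without any 1 of the animals but DMD KO replicate 1. None of 17 cell division genes passed, and 3 had an unadjusted p under 0.05. The mean level of the division list was 7.08, 7.02 and 7.74 in the DMD KO animals, against 7.16, 6.67 and 6.84 in the WT animals, with DMD KO replicate 3 the highest animal and the genotypes overlapping. None of 29 proteasome subunits passed either, with 3 at an unadjusted p under 0.05.

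The other genes with large falls have varied roles. GADL1, a decarboxylase that in mice makes beta-alanine, read 8.12, 8.13 and 7.45 in the DMD KO animals, against 9.91, 9.25 and 10.40 in the WT animals, 3.87 times lower (difference -1.95 ± 0.32, SE, adjusted p = 0.00316). TEX9 read 7.63, 7.68 and 8.13 in the DMD KO animals, against 10.34, 9.60 and 8.93 in the WT animals (difference -1.81 ± 0.38, SE, adjusted p = 0.0132), with WT values spread over more than 1 log2 unit. PSTPIP2, a membrane-bending F-BAR protein, was 2.99 times lower (difference -1.58 ± 0.21, SE, adjusted p = 0.000723), and ADCY2, an adenylyl cyclase, 2.65 times lower (difference -1.41 ± 0.16, SE, adjusted p = 0.00024). PPP1R14C, an inhibitor of protein phosphatase 1, read 6.82, 6.85 and 6.74 in the DMD KO animals, against 8.18, 8.15 and 8.04 in the WT animals, tight in both genotypes, and was 2.50 times lower (difference -1.32 ± 0.10, SE, adjusted p = 9.87e-06). PTER was 2.87 times lower (difference -1.52 ± 0.26, SE, adjusted p = 0.00432). FMO2, a flavin monooxygenase, fell by 1.47 (adjusted p = 0.00113) to levels below the 25th percentile in every DMD KO animal.

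The genotype difference at 3 months was set against that at 2 days by testing the difference between the differences. It passed for 1105 probe sets (5.05%) and for 634 of the named genes (6.17%), 386 of them more positive at 3 months (3.75%) and 248 more negative (2.41%). Leaving out 1 of the 13 animals gave between 789 probe sets, without WT replicate 3 at 3 months, and 1265, without WT replicate 3 at 2 days, the array that stood apart, and array weights gave 2760. Of the 757 genes called at 3 months 342 also had a called difference between the ages. Among genes higher in DMD KO at 3 months, 81 (13.7%) were also called higher at 2 days, which is 9.77% of the 829 called higher then (8.06% of named genes). A further 68 (11.5%) were called lower at 2 days, 19.9% of the 341 called lower then. Among the 165 lower at 3 months, 18 (10.9%) were also called lower at 2 days and 24 (14.5%) called higher. Without WT replicate 3 at 2 days, 428 named genes were called higher and 269 lower at 2 days.

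Many matrix genes were higher in DMD KO muscle at 3 months and lower at 2 days, 12 of the 28 matricellular genes by both tests. At 2 days 15 of 28 matricellular genes were called lower in DMD KO (3.32% of all named genes were), and the difference between ages was called in 19 of the 28, more positive at 3 months. THBS1 differed by 2.10 at 3 months and 0.77 at 2 days, with the same sign. POSTN differed by 2.52 at 3 months and by -2.27 at 2 days, a change of 4.79 ± 0.55 (SE, adjusted p = 0.000382). The same pattern was called for ASPN (4.13 ± 0.45, SE, adjusted p = 0.000264), LRRC17 (3.79 ± 0.37, SE, adjusted p = 0.00014), VCAN (3.55 ± 0.42, SE, adjusted p = 0.000475), CTHRC1 (3.13 ± 0.23, SE, adjusted p = 2.29e-05), COL12A1 (2.67 ± 0.32, SE, adjusted p = 0.000475) and COL3A1 (2.39 ± 0.15, SE, adjusted p = 9e-06). KERA (keratocan), a small proteoglycan, had the largest change at 5.18 ± 0.82 (SE, adjusted p = 0.00309), although its 3-month difference of 1.68 was not called. For membrane repair genes the difference was 2.07 at 3 months and -0.47 at 2 days for ANXA2 (2.54 ± 0.26, SE, adjusted p = 0.000183), and 1.76 against -1.10 for S100A11 (2.85 ± 0.32, SE, adjusted p = 0.000323).

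In muscle genes ACTC1 differed by 3.25 at 3 months and -0.51 at 2 days (3.76 ± 0.31, SE, adjusted p = 3.85e-05), MEST by 2.61 and -0.82 (3.43 ± 0.34, SE, adjusted p = 0.00014), and PVALB by -4.96 and -0.47 (-4.49 ± 0.43, SE, adjusted p = 0.000117). CASQ2 and PDK4 were also more positive at 3 months (2.56 ± 0.34, SE, adjusted p = 0.00107, and 3.17 ± 0.83 (SE, adjusted p = 0.048) for PDK4), and the call on PDK4 was lost on leaving out any of 10 of the 13 animals. Macrophage genes were more positive at 3 months in 10 of 21 members, LGALS3 by 2.03 ± 0.17 (SE, adjusted p = 5.22e-05), MSR1 by 2.40 ± 0.37 (SE, adjusted p = 0.00274) and IL18, outside that list, by 2.98 ± 0.39 (SE, adjusted p = 0.00103). In complex I the difference between ages was called more negative in 11 of 31 genes, and 5 of the 31 were called higher in DMD KO at 2 days, 1 without WT replicate 3 at 2 days.

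For some genes no difference between the ages was called. SPP1 differed by 3.00 at 3 months and 2.58 at 2 days, ANKRD1 by 3.23 and 2.41, AK1 by -1.74 and -1.63, GADL1 by -1.95 and -2.35, MSTN by -1.23 and -1.46, and LAMA2 by 1.36 and 1.10. The change between ages was 0.42 (adjusted p = 0.507), 0.81 (adjusted p = 0.774), -0.11 (adjusted p = 0.944), 0.39 (adjusted p = 0.79), 0.23 (adjusted p = 0.815) and 0.26 (adjusted p = 0.847) in that order, which does not show that the differences are equal. At the other end FMO1, a flavin monooxygenase, and the locus LOC100516643 had changes of -3.14 ± 0.63 (SE, adjusted p = 0.0119) and -2.65 ± 0.42 (SE, adjusted p = 0.00335) with 3-month differences of -0.38 and -0.04 that were not called.

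**Figure D5:**
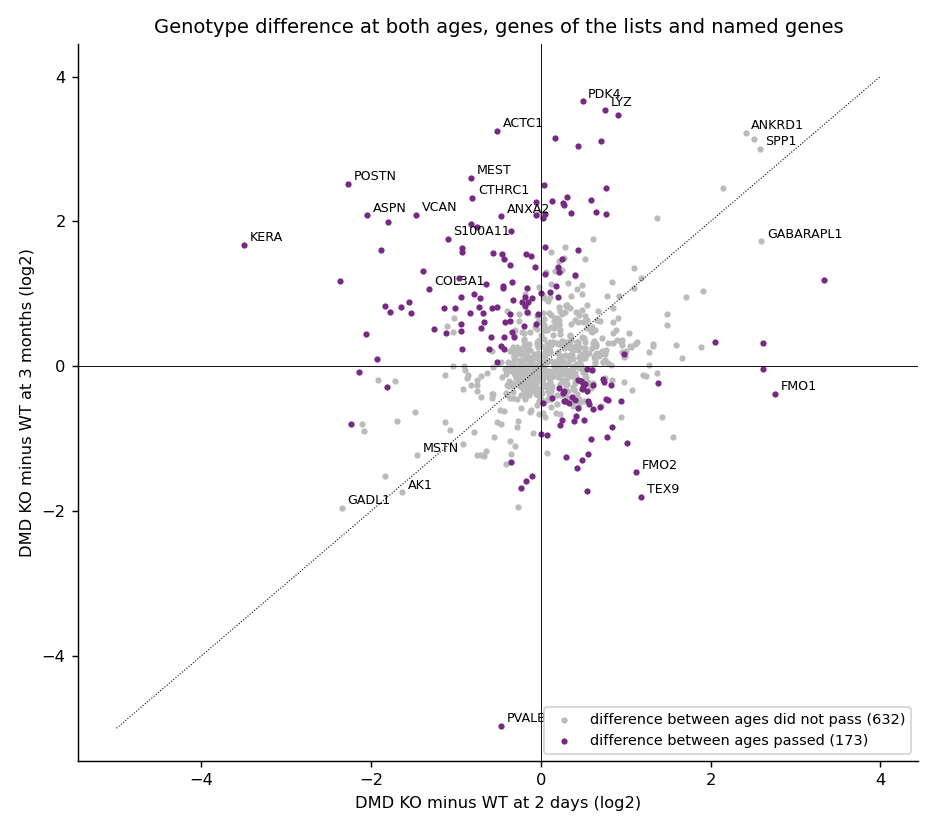
Genotype difference at 3 months (vertical axis, log2) against that at 2 days (horizontal axis, log2) for 805 genes of the lists and naming rule, with the dotted line marking equal differences and purple marking a called difference between ages. POSTN, ASPN and KERA lie at the upper left, positive at 3 months and negative at 2 days, while SPP1, ANKRD1, AK1 and GADL1 lie near the line.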

How the data were processed

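RNA of biceps femoris from 13 pigs was extracted with Trizol, labelled with biotin and hybridised to whole-transcript arrays, 1 per animal, per the labels' protocols. Per the submitters' processing notes the authors used Affymetrix Power Tools. The sources used here give neither its version nor the summary method and normalization. The deposited values, for 21893 probe sets on each array, are taken as log2 levels made by the authors, since they range from 2.81 to 13.8 and no label states the log base. They were used unfiltered and without further normalization.

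Groups came from the sample titles. Of the probe sets 11028 carry 1 gene symbol, 418 several and 10447 none, by the platform annotation, and 5 symbols were updated through gene numbers; each of 10283 genes was represented by its probe set with the highest mean over 13 arrays. All 4 groups were fitted together with limma 3.58.1 in R 4.3.3 (lmFit, eBayes, 9 residual degrees of freedom), two-sided, with Benjamini-Hochberg adjustment over all probe sets and a threshold of 0.05. SE is limma's moderated standard error and SD the spread of 3 animals. The script was tested on simulated data.

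The comparison, the 45 gene lists and the naming rule were chosen with earlier results of these data known, so lists were counted and not tested. The rule named the 15 largest rises and 15 largest falls without overlap, all measured dystrophin complex genes, up to 5 called members per list and direction (up to 2 by size where none was called), defining cell type markers, the 5 highest and 5 lowest called interactions, and, by value alone, list members of the same pathway step. Alternatives were the 6 arrays alone, eBayes trend and robust, quantile and median normalization, a filter on dim probe sets, repeated probe sets left out, array weights, the mean of a gene's probe sets, a replicate block, and each of the 6 animals at 3 months left out. Leaving out each of the 7 animals at 2 days was added after seeing the data.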

Additional observations from a re-analysis of the deposited data

Results flagged for a closer look

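For the genes below the genotype difference at 3 months differed from that at 2 days by the test of the difference itself (the interaction term in limma, adjusted p under 0.05 over all probe sets). Each value is the DMD KO minus WT difference at 3 months minus the DMD KO minus WT difference at 2 days, on the log2 scale. This was called for 6.17% of all named genes. The test does not say at which age the genotypes differed. Of the 98 changes listed, 82 were called whichever 1 of the 13 animals was left out. The calls on ANXA4, ASNS, BLNK, C1QB, CILP, COX6C, FBXO32, LCP1, MCUB, MYL3, MYL4, OSMR, PDIA3, PDK4, PTER and TFEC were lost without some 1 animal. WT replicate 3 at 2 days, whose array stood apart from the other WT piglets, was among those animals for ANXA4, CILP, FBXO32, MYL3 and PTER.

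Among matrix genes of the fibril-organising and fibroblast kinds, the difference was more positive at 3 months by 5.18 for KERA, 4.79 for POSTN, 4.13 for ASPN, 3.55 for VCAN, 3.13 for CTHRC1, 2.78 for FN1, 2.57 for LOX, 2.22 for SFRP2 and 2.15 for FAP. The list goes on with 1.95 for PLAU, 1.78 for THY1, 1.73 for TNC, 1.33 for THBS1, 0.83 for MMP19 and 0.63 for CILP. Among collagen chains, the difference was more positive at 3 months by 2.67 for COL12A1, 2.50 for COL1A1, 2.39 for COL3A1, 2.18 for COL14A1, 1.76 for COL6A3 and 1.55 for COL5A2. Among membrane repair genes, the difference was more positive at 3 months by 2.85 for S100A11, 2.54 for ANXA2, 2.51 for ANXA1, 2.01 for MYOF and 1.21 for ANXA4. It was more negative by -1.15 for BIN1. Among muscle genes of developing or slow fibres, regeneration, atrophy and the dystrophin complex, the difference was more positive at 3 months by 3.76 for ACTC1, 3.43 for MEST, 1.60 for HGF, 1.17 for NCAM1 and 0.92 for MYL4. It was more negative by -1.21 for SSPN, -1.44 for FBXO40, -2.07 for MYL3 and -2.15 for FBXO32.

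Among calcium genes, the difference was more positive at 3 months by 2.56 for CASQ2 and 1.23 for ASPH. It was more negative by -1.02 for ATP2A1, -1.04 for HRC and -4.49 for PVALB. Among macrophage, complement, cytokine and B cell genes, the difference was more positive at 3 months by 2.98 for IL18, 2.78 for LYZ, 2.46 for VSIG4, 2.40 for MSR1, 2.15 for MRC1, 2.12 for CXCL14, 2.03 for LGALS3, 1.99 for CFI and 1.23 for CLU. The list goes on with 1.09 for CD86, 1.04 for C1QB, 1.02 for BLNK and 0.86 for OSMR. Among lysosome and antioxidant genes, the difference was more positive at 3 months by 2.32 for CTSH, 2.05 for LIPA, 1.44 for CTSK, 1.13 for GSTM3 and 0.98 for PRDX1. Among genes of energy supply, the difference was more positive at 3 months by 3.17 for PDK4. It was more negative by -0.75 for SUCLG1, -0.76 for UQCRB, -0.85 for COX6C, -0.94 for NDUFB11, -1.10 for NDUFB2, -1.26 for NDUFB6, -1.75 for NDUFB1, -1.78 for CKMT2 and -2.27 for PFKFB1. Among vessel, chaperone and stress genes, the difference was more positive at 3 months by 1.65 for HSPA5, 1.53 for ASNS, 1.38 for CALR, 0.91 for PDIA3 and 0.81 for PDIA6. It was more negative by -0.99 for RGS5, -1.01 for FLT1, -1.60 for ATF4 and -1.69 for DNAJB5. Among genes outside the lists, the difference was more positive at 3 months by 3.79 for LRRC17, 2.61 for P2RY12, 1.90 for TMSB10, 1.70 for LCP1, 1.69 for TFEC, 1.63 for CERS6, 1.24 for ATP6V1A, 1.17 for UGCG and 1.03 for ACTB. The list goes on with 1.03 for SEC31A and 0.92 for MCUB. It was more negative by -0.97 for PPP1R14C, -1.40 for PSTPIP2, -1.42 for PTER, -1.55 for PRKAA2, -1.83 for ADCY2, -2.59 for FMO2, -2.65 for LOC100516643, -2.99 for TEX9 and -3.14 for FMO1.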

How the results depend on the processing

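With all animals 1310 probe sets were called at 3 months, 1012 higher and 298 lower, 757 of the named genes were called, and 1105 probe sets had a called difference between the ages. No called value changed sign in any of the 22 alternatives. The fit on the 6 arrays at 3 months alone called 193 probe sets lower and 504 named genes. It has fewer residual degrees of freedom and its own estimate of spread, and the cause of its lower counts was not tested. The difference between ages could not be fitted there. Array weights, whose estimate stopped before it converged, called 3412 probe sets at 3 months, 2345 higher and 1067 lower, 1864 named genes and 2760 probe sets for the difference between ages. The cause was not tested. Leaving out 1 animal at 3 months gave between 702 (without DMD KO replicate 3) and 1488 (without WT replicate 1) called probe sets, 545 to 1217 higher, 151 to 271 lower, 400 to 856 named genes, and 789 to 1062 probe sets for the difference between ages. Between 51.4% and 83.6% of the called named genes were called again. Leaving out each animal at 2 days, added after seeing the data, gave 1129 to 2036 called probe sets at 3 months, 656 to 1175 named genes, and 821 to 1265 probe sets for the difference between ages. The highest of these, 2036 with 1575 higher and 461 lower, came without WT replicate 3 at 2 days, which has the lowest array weight, 0.19. All 757 called named genes were called again there. Trend and robust settings, quantile normalization (70.2% of calls higher, against 77.3%), centring on the median, the filter on dim probe sets, leaving out repeated probe sets and averaging the probe sets of a gene kept every count within 1.5 times. Quantile normalization shifted the median difference by -0.02.

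The labels do not say whether animals that share a replicate number were matched, and the main fit treated all animals as unpaired. Deviations of DMD KO and WT animals of the same number correlated at -0.35, 0.31 and -0.15 across probe sets. For different numbers the values ran from -0.41 (DMD KO replicate 3, WT replicate 2) to 0.48 (DMD KO replicate 3, WT replicate 1). With 3 animals per genotype these correlations cannot decide whether the numbers pair the animals. With the replicate number as a block 585 probe sets were called at 3 months, 460 higher and 125 lower, 336 named genes, and 407 probe sets for the difference between ages.

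Of the 151 genes named in the text that were called, 88 stayed called in every alternative and 48 lost the call when some 1 animal was left out. With the replicate number as a block 48 lost the call, PDK4, ANKRD1 and TEX9 among them. On the 6 arrays at 3 months alone FRZB and CILP were among those lost, and C1S and RGS5 lost the call in both settings. Across alternatives the macrophage list had 9 to 14 of 21 members called higher, the matricellular list 13 to 18 of 28, the complement list 4 to 9 of 13, the lysosome and autophagy list 3 to 13 of 28, and the complex I list 3 to 13 of 31 called lower. Arrays give no counts, so levels near the 25th percentile (6.53 to 6.61) limit what can be read of dim genes such as LYZ, MSR1, CFI and FMO2.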

Other observations

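The families in this paragraph were chosen after the values of their members were seen, so their counts are a description only. The Arp2/3 complex, which starts branched actin filaments, had 4 of its 9 measured subunits called higher in DMD KO muscle at 3 months and none lower, with a median difference of 0.70. ARPC3 read 7.61, 7.25 and 8.13 in the DMD KO animals, against 6.95, 6.31 and 6.30 in the WT animals and rose by 1.15 (adjusted p = 0.0109), a call lost without WT replicate 2 or 3. Of 20 proteins that bind, cap or bundle actin 8 rose, among them plastin (LCP1), an actin bundler of white blood cells, by 2.29 (adjusted p = 0.000338), and thymosin beta-10 (TMSB10) by 0.96 (adjusted p = 0.00738). The beta-actin gene ACTB, often taken as a constant control, read 10.16, 10.42 and 10.25 in the DMD KO animals, against 9.86, 9.48 and 9.64 in the WT animals and was 1.53 times higher without overlap (adjusted p = 0.00601). The macrophage list mean was also higher in DMD KO muscle, at 8.34 to 8.87 in DMD KO and 7.13 to 7.42 in WT animals, and its part was not tested.

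Of 15 measured sphingolipid enzymes 8 rose and none fell, with a median of 0.62. UGCG, which makes glucosylceramide, rose by 1.60 (adjusted p = 1.61e-05), the ceramidase ASAH1 by 1.48 (adjusted p = 0.00345) and the ceramide synthase CERS6 by 1.52 (adjusted p = 0.000158). Of 14 subunits of the vacuolar proton pump 4 rose, ATP6V1A by 1.08 (adjusted p = 0.00455). Of 20 proteins of reticulum exit and Golgi coats 10 rose and none fell, with a median of 0.62, SEC31A by 0.88 (adjusted p = 0.00265). The pore of the mitochondrial calcium uniporter, MCU, read 11.14, 11.04 and 10.93 in the DMD KO animals, against 10.18, 10.06 and 9.65 in the WT animals and was 2.10 times higher (adjusted p = 0.00951), a call lost without WT replicate 3. Its relative MCUB, which dampens the channel, rose by 1.11 (adjusted p = 0.00105). They were the 2 genes called of 5 measured in the uniporter complex, with 4 of the 5 differences above 0. MICU3 differed by -0.79 (adjusted p = 0.098) and was not called. SMDT1 differed by 0.22 on its brighter probe set, not called, and by -1.16 (adjusted p = 0.00095) on another.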
